A study of Mus musculus with 15 samples.

Results

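Bile acid synthesis and transport was followed through 10 genes of the liver and lung gene tables, chosen by name among the 54532 genes that each table lists. They were Cyp7a1, Cyp8b1, Cyp27a1, Cyp7b1, Hsd3b7 and Baat for synthesis, Abcb11 and Slc10a1 for transport, and Nr1h4 and Nr0b2 for regulation. All 10 names were found once in each table.

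RNA was sequenced from wild type male C57BL/6J mice, an inbred laboratory strain, given either a control diet (CS) or the same diet with 2% phytosterols (PS), plant sterols that resemble cholesterol. The liver was sequenced in 4 CS and 5 PS mice and the lung in 3 CS and 3 PS mice, with 1 library per mouse and tissue, and 6 mice gave both tissues. The labels put every mouse at 28 weeks of age, whereas the feeding scheme of the methods adds up to a higher age. Each library is whole tissue, so the values mix all of its cell types, and the time of day of collection was not given in the sources used here. Total counts ran from 14410117 to 17625179 per liver and from 17934930 to 19396057 per lung. The hepatocyte markers Alb, Apoa1, Ttr, Ahsg, Serpina1c, Tat, Cps1 and Fgb were detected in every liver, and together they made up between 80175 and 122498 CPM. CPM is the number of counts out of 1e+06 in the library, with library sizes scaled by edgeR's TMM method, and all CPM values are on this scale unless stated otherwise.

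Hepatocytes turn cholesterol into bile acids. In the classic route Cyp7a1 adds the first hydroxyl group and sets the pace, Hsd3b7 acts on the ring next, and Cyp8b1 directs the product towards cholic acid. In the alternative route Cyp27a1 oxidises the side chain and Cyp7b1 hydroxylates the resulting oxysterols. Baat joins the finished acids to taurine or glycine, Abcb11 (the bile salt export pump) moves them into bile, and Slc10a1 (the sodium taurocholate cotransporter) takes them up again from the blood. Nr1h4 encodes FXR, the nuclear receptor for bile acids, and Nr0b2 encodes SHP, a partner without a DNA-binding domain that FXR induces and that is known to repress Cyp7a1 and Cyp8b1.

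The stretches before the start sites of 4 of the genes are shown because Nr0b2 and Slc10a1 had the smallest p of the genes between the diets in the liver, and because Cyp8b1 and Abcb11 are known targets of SHP and FXR. RefSeq windows (assembly GRCm38.p6, equal to mm10) were matched by symbol for 7 of the 10 genes. Windows for Cyp7a1, Cyp7b1 and Baat were not used here. Each line gives the 250 bases before the start, 5′ to 3′ on the strand of the gene. Capitals mark letters that match AGGTCA (a nuclear receptor half-site), CAAGGNCA (a site for Nr5a2, also called LRH-1) or CAAAGTCCA (a site for Hnf4a), on either strand.
Nr0b2, chr4:133553126-133553375 (plus strand): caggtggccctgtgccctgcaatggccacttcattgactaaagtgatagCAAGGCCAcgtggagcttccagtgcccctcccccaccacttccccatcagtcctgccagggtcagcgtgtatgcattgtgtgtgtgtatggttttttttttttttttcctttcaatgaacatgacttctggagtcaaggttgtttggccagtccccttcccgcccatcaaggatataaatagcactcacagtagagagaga
Slc10a1, chr12:80968706-80968955 (minus strand): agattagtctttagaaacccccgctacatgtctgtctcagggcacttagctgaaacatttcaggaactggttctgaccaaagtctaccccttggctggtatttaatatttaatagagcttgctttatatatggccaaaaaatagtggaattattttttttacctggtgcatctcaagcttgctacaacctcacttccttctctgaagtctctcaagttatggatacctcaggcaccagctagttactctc
Cyp8b1, chr9:121916306-121916555 (minus strand): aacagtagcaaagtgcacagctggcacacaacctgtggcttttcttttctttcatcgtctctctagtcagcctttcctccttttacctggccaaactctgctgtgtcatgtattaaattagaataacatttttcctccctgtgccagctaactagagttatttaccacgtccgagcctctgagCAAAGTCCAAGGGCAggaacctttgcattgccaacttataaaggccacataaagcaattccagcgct
Abcb11, chr2:69342617-69342866 (minus strand): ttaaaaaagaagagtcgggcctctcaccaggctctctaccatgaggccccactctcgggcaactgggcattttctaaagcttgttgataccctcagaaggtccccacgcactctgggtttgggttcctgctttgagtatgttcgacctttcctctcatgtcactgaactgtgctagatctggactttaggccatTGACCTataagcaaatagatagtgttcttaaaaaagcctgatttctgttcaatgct
The Nr0b2 stretch holds CAAGGCCA beginning 201 bases before the start. The Cyp8b1 stretch holds CAAAGTCCA beginning 67 bases before it and CAAGGGCA beginning 60 bases before it, and these 2 matches share letters. The Abcb11 stretch holds TGACCT, the reverse complement of the half-site, beginning 56 bases before the start. The stretch of Slc10a1 shown holds none of the motifs, while a second RefSeq start of this gene has AGGTCA beginning 87 bases before it. The Nr1h4 window (chr10:89506609-89506908, minus strand) belongs to a RefSeq start inside the annotated gene, and it has TGACCT 214 bases before that start. Over all 32851 windows of 300 bases, which reach 50 bases past the start, 16.3% hold AGGTCA, 6.71% CAAGGNCA and 0.475% CAAAGTCCA on either strand. Neither the inverted repeat of AGGTCA that FXR binds nor TTANGTAA, the D-box of the clock factors DBP and NFIL3, was found in the windows of the 7 genes. Those motifs occur in 0.0274% and 2.32% of all windows. A match describes letters only.

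The question in the liver was whether the phytosterol diet changed the expression of these genes. Of the 10, 9 passed edgeR's filter on low counts and were tested among 13195 genes. Nr0b2 and Slc10a1 were higher and Cyp7b1 was lower in PS livers at an unadjusted p of at most 0.05. Over all genes tested, 7.55% passed that threshold, 3.96% higher and 3.58% lower. None of the 9 passed an adjusted p of 0.05 (Benjamini-Hochberg over all genes tested), by edgeR, DESeq2 or limma-trend, and 0.00758% of all genes (all of it higher in PS, 0.0% lower) did by edgeR. By DESeq2's Wald test 3 were higher and 1 was lower at an unadjusted p of at most 0.05, where 9.17% of all genes passed. In all, 4 of the 9 were higher and 5 lower in PS livers, and their median log2 fold change was -0.11, against -0.03 over all genes tested.

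**Figure D1:**
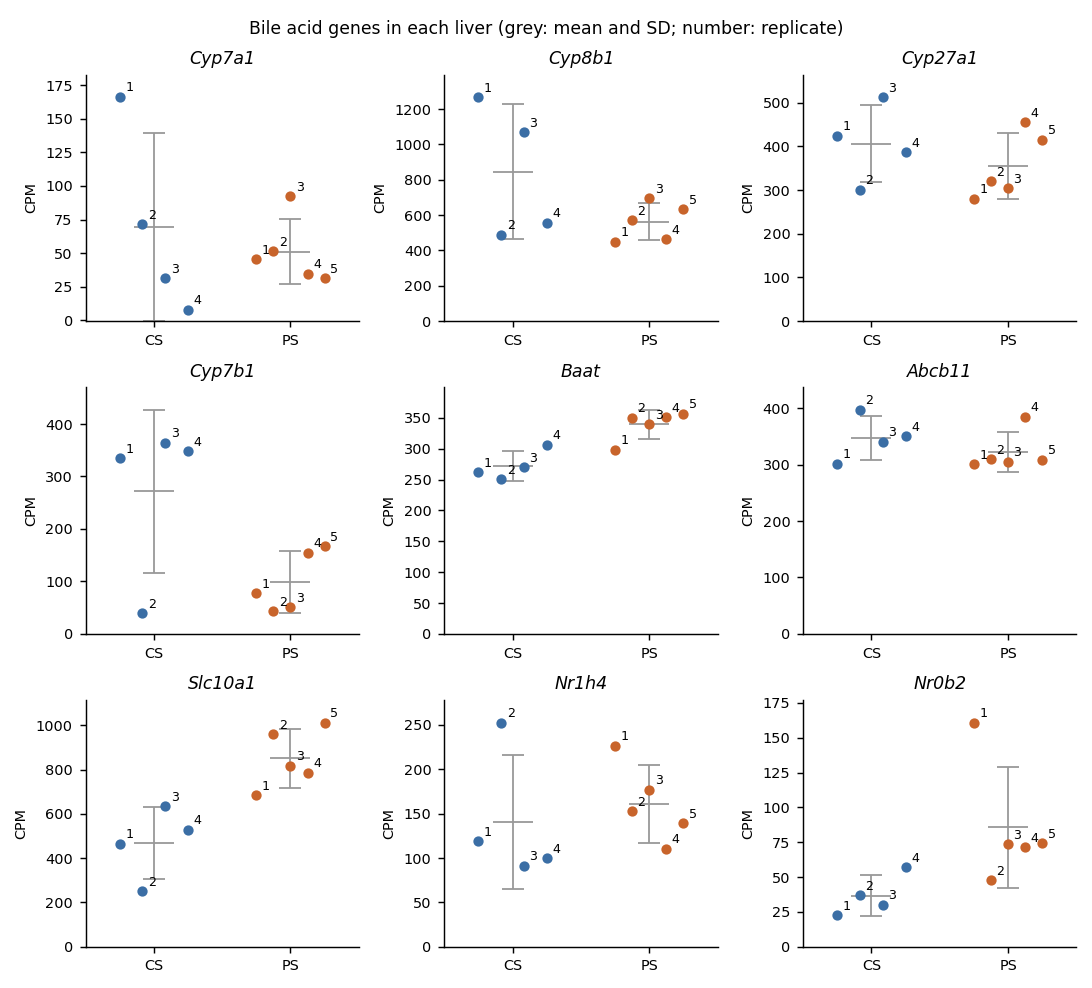
CPM of 9 bile acid genes (vertical axes, each from 0, or from just below 0 for Cyp7a1) in each liver by diet, with 4 CS and 5 PS livers. Points are livers numbered by replicate, and grey bars are the mean and SD. The 5 PS livers lie above every CS liver for Slc10a1 on this TMM scale, though not by total counts alone, while CS replicate 2 stands apart for Cyp7b1 at 39.1 CPM.

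Cyp7a1, the rate-limiting enzyme of the classic route (chr4:6265612-6275633, minus strand, mm10), had the widest spread of the 9 genes within the control group in proportion to its level. The CS livers were at 166, 71.4, 31.4 and 7.81 CPM, and the PS livers at 45.6, 51.6, 92.4, 34.7 and 31.4 CPM. The PS values all fall inside the range of the CS values, which spans 21.3-fold. The group means were 69.2 ± 69.9 (SD, n = 4) and 51.1 ± 24.5 CPM (SD, n = 5). The log2 fold change was -0.44 with a standard error of 0.64 and an interval from -1.85 to 0.97 (edgeR, adjusted p = 0.95), so a difference of either sign lies within it. Without CS replicate 1, the highest liver, the log2 fold change was 0.47.

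Cyp8b1, the enzyme that directs synthesis towards cholic acid (chr9:121914356-121916305, minus strand), stood at 1269, 489, 1069.7 and 557 CPM in the CS livers. The PS livers were at 449, 572, 697, 464 and 632 CPM. CS replicates 1 and 3 were above every PS liver, and the other CS livers lay among them. The mean was 846 ± 383 CPM (SD, n = 4) in CS and 563 ± 107 (SD, n = 5) in PS. Its log2 fold change was -0.59 (SE 0.29, edgeR, unadjusted p = 0.0691, adjusted p = 0.705). It was -0.78 with an unadjusted p of 0.0105 without CS replicate 2, -0.74 with 0.0326 without CS replicate 4, and -0.33 with 0.268 without CS replicate 1, the highest liver (edgeR). Without the filter on low counts it was -0.59 with 0.0426.

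Hsd3b7, the dehydrogenase of the sterol ring (chr7:127800604-127803802, plus strand), was listed at or near 0 in every liver, with 0, 18, 1 and 0 counts in CS and 0, 7, 5, 2 and 3 counts in PS. It was not tested. In the GENCODE M21 annotation of the same build, 99.2% of its 2769 exon bases are shared with other genes, Gm49388 on the same strand (62.0%) and 9430064I24Rik on the opposite strand (62.4%). Gm49388 was at 0 counts in every library, and 9430064I24Rik had 0 to 8 counts per liver. How the counting treated reads that fall on several genes, and whether it used strand, was not given in the sources used here, so the low count is uncertain as a measure of Hsd3b7.

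Cyp27a1 (chr1:74713574-74737892, plus strand), which opens the alternative route, was at 424, 301, 513 and 387 CPM in CS livers and at 280.2, 321, 304, 456 and 415 CPM in PS livers. The groups overlapped, with a mean of 406 ± 88.0 CPM (SD, n = 4) in CS and 355 ± 76.1 in PS (SD, n = 5). Their log2 fold change was -0.19 (SE 0.22, edgeR, adjusted p = 0.92).

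Cyp7b1 (chr3:18071950-18243338, minus strand), the oxysterol hydroxylase of that route, differed by more on the log2 scale than any other of the 9. CS replicates 1, 3 and 4 stood at 335, 364 and 349 CPM, and CS replicate 2 stood at 39.1. The PS livers were at 77.5, 43.7, 50.7, 155 and 167 CPM. Each PS liver was thus lower than CS replicates 1, 3 and 4 and higher than CS replicate 2. The log2 fold change was -1.46 with an interval from -2.73 to -0.18 (SE 0.58, edgeR, unadjusted p = 0.0284, adjusted p = 0.581). Without CS replicate 2 it was -1.82 (edgeR, unadjusted p = 0.00066, adjusted p = 0.0675). Leaving out CS replicate 1, 3 or 4 or PS replicate 1, 2 or 3 put the unadjusted p above 0.05, between 0.0579 and 0.0724 (edgeR). It was also above 0.05 by both forms of limma-trend (0.0986 and 0.102) and without the filter (0.0723), so it stayed at or under 0.05 in 7 of 16 alternatives.

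Baat (chr4:49489422-49506557, minus strand), the enzyme of conjugation, was among the least variable of the genes. Its CS livers were at 262, 250.5, 270.4 and 307 CPM and its PS livers at 298, 351, 340.2, 351 and 357 CPM. All PS livers but replicate 1 were above every CS liver. The mean was 272 ± 24.4 CPM (SD, n = 4) in CS and 339 ± 23.7 (SD, n = 5) in PS, a log2 fold change of 0.32 (SE 0.15, edgeR, unadjusted p = 0.0637, adjusted p = 0.697). The unadjusted p was 0.0129 by DESeq2's Wald test (adjusted p = 0.294) and 0.0383 by edgeR without CS replicate 4.

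Slc10a1 (chr12:80953183-80968705, minus strand), the uptake carrier, was the only one of the 9 tested genes whose groups did not overlap. Such separation was seen in 3.63% of all genes tested, 2.1% with PS higher and 1.53% with PS lower. The CS livers were at 466, 250.5, 636 and 529 CPM, and the PS livers at 685, 960.0, 818, 787 and 1012 CPM. The lowest PS liver was thus above the highest CS liver, and the lowest value of all was CS replicate 2. The groups did not overlap in FPKM either, but in CPM from total counts alone, a scale added after the values were seen, PS replicate 1 (615) fell below CS replicate 3 (669). The mean was 470.3 ± 162 CPM (SD, n = 4) in CS and 852 ± 133 (SD, n = 5) in PS. The fold change was 1.81 with an interval from 1.22 to 2.69 (log2 0.86, SE 0.26, edgeR, unadjusted p = 0.00679, adjusted p = 0.395). Its unadjusted p stayed at or under 0.0427 in all 16 alternatives, with log2 fold changes from 0.65 to 1.04 and the adjusted p never under 0.0851.

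Abcb11 (chr2:69238282-69342616, minus strand), the export pump, varied little. It stood at 302, 397, 341 and 350.1 CPM in CS livers and at 301, 309.7, 306, 385 and 309 CPM in PS livers. The groups overlapped across nearly their whole range, with PS replicate 4 above the other PS livers. Its log2 fold change was -0.11 with an interval from -0.47 to 0.25 (SE 0.16, edgeR, adjusted p = 0.952). The diet difference in the uptake carrier was thus not seen in the export pump, though the difference between the carriers was not itself tested. Exons of Abcb11 share 3.0% of their bases with Gm13613 and Gm13614 on the opposite strand, which had at most 4 counts in any liver.

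Nr1h4 (chr10:89454234-89533585, minus strand), the bile acid receptor, was at 119, 252, 91.4 and 99.9 CPM in CS livers and at 227, 152, 177, 110.3 and 139.5 CPM in PS livers. CS replicate 2 was the highest liver, and the other CS livers were lower than every PS liver, except that CS replicate 1 was above PS replicate 4. The log2 fold change was 0.20 (SE 0.32, edgeR, adjusted p = 0.958), and 0.64 without CS replicate 2 (edgeR, unadjusted p = 0.0173, adjusted p = 0.251).

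Nr0b2 (chr4:133553376-133556536, plus strand), the repressor that FXR induces, was higher in PS by more on the log2 scale than any other of the 9. The CS livers were at 22.7, 36.9, 30.1 and 57.0 CPM, and the PS livers at 161, 47.8, 73.7, 71.5 and 74.4 CPM. All PS livers but replicate 2 were above every CS liver, and PS replicate 1 was far above the rest. The mean was 36.7 ± 14.7 CPM (SD, n = 4) in CS and 85.6 ± 43.4 (SD, n = 5) in PS. The fold change was 2.33 with an interval from 1.34 to 4.05 (log2 1.22, SE 0.36, edgeR, unadjusted p = 0.0060, adjusted p = 0.374). Over the 16 alternatives the log2 fold change ran from 0.86 to 1.52 and the unadjusted p from 0.00119 to 0.0263. The adjusted p was never under 0.0746.

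**Figure D2:**
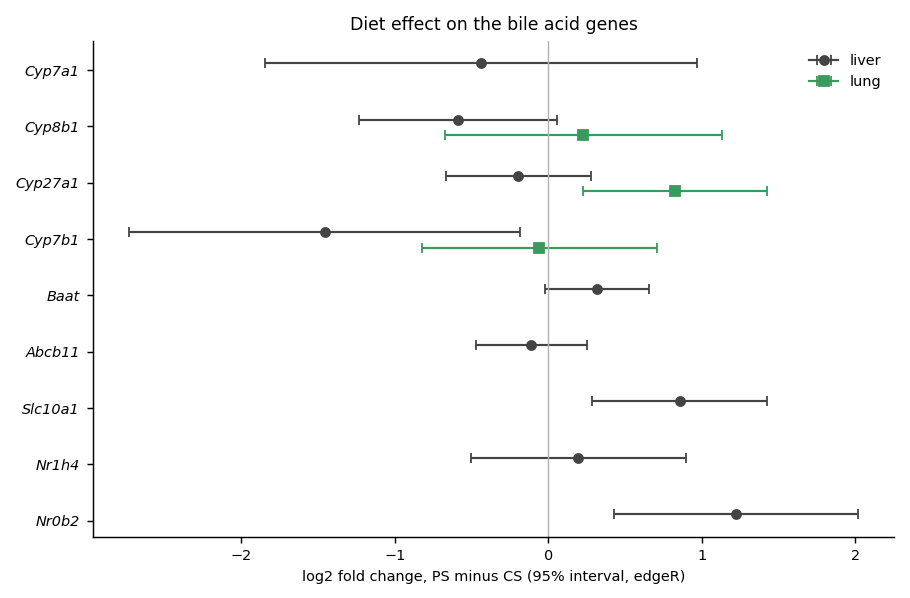
Log2 fold change, PS minus CS (horizontal axis), of the bile acid genes in liver (grey circles, 9 genes) and lung (green squares, the 3 genes that passed the filter there), with 95% intervals from edgeR. The liver intervals of Nr0b2, Slc10a1 and Cyp7b1 leave out 0, as does that of Cyp27a1 in the lung, before adjustment.

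CS replicate 2 held the lowest or highest value of the 9 livers for 5 of the 9 genes, and PS replicate 1 did so for 4. How often each liver did so over all genes tested was not counted, so this is not a trait of these genes. CS replicate 2 was lowest for Cyp7b1, Baat and Slc10a1 and highest for Abcb11 and Nr1h4. PS replicate 1 was lowest for Cyp8b1, Cyp27a1 and Abcb11 and highest for Nr0b2. Without CS replicate 2, 5 of the 9 genes had an unadjusted p of at most 0.05, with Slc10a1, Nr1h4 and Nr0b2 higher and Cyp8b1 and Cyp7b1 lower. In that fit 14.1% of all genes passed the same threshold, against 7.55% with every liver.

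Per length, in FPKM as deposited, Cyp8b1 led the CS livers with a median of 427, and Slc10a1 led the PS livers with a median of 372. In CS the order went on with Slc10a1 (231), Cyp27a1 (191), Cyp7b1 (161), Baat (140.3), Abcb11 (68.7), Nr1h4 (48.6), Nr0b2 (29.99), Cyp7a1 (12.4) and Hsd3b7 (0.0107). In this order the ranges of neighbours overlapped, except between Baat and Abcb11 and between Cyp7a1 and Hsd3b7. In PS the order was Slc10a1, Cyp8b1 (299), Baat (184), Cyp27a1 (151), Nr1h4 (67.5), Nr0b2 (65.1), Abcb11 (60.6), Cyp7b1 (36.2), Cyp7a1 (11.1) and Hsd3b7 (0.0726). There the ranges did not overlap between Cyp8b1 and Baat, between Cyp27a1 and Nr1h4 and between Cyp7a1 and Hsd3b7. Cyp8b1 was above Slc10a1 in 4 of 4 CS livers, and Slc10a1 was above Cyp8b1 in 5 of 5 PS livers.

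Of 17 further enzymes of bile acid synthesis, 16 were tested in the liver, with 2 higher and none lower in PS at an unadjusted p of at most 0.05 (3.96% and 3.58% of all genes) and none at an adjusted p of 0.05 by edgeR. By DESeq2 1 rose at an adjusted p under 0.05, as did 0.835% of all genes. Their median log2 fold change was -0.08. Akr1d1, the reductase that gives bile acids their bent ring, was at 75.9, 175, 152 and 157 CPM in CS livers and at 281, 243, 224, 261 and 242 CPM in PS livers, with no overlap. Its log2 fold change was 0.84 (SE 0.23, edgeR, unadjusted p = 0.00418, adjusted p = 0.334). Akr1c14, the 3α-hydroxysteroid dehydrogenase that follows it, was at 119, 122, 127 and 163 CPM in CS livers. In PS livers it was at 217, 321, 239, 354 and 256 CPM, again with no overlap, and its log2 fold change was 1.07 (SE 0.20, edgeR, unadjusted p = 2.29e-04, adjusted p = 0.114). Cyp2c70, which makes muricholic acids in the mouse, ran from 48.9 to 214 CPM in CS and from 69.3 to 205 CPM in PS (log2 fold change -0.27, SE 0.42, edgeR, adjusted p = 0.955).

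Among 16 other transporters and carriers, 14 were tested in the liver, with 2 higher and 1 lower at an unadjusted p of at most 0.05 (3.96% and 3.58% of all genes) and none at an adjusted p of 0.05 by edgeR. By DESeq2 1 rose at an adjusted p under 0.05, as did 0.835% of all genes. Their median log2 fold change was 0.05. Slc10a2, the apical bile acid transporter known from the ileum and from bile ducts, stood at 8.83, 9.37, 5.75 and 7.30 CPM in CS livers. It stood at 13.2, 22.4, 16.6, 25.2 and 19.2 CPM in PS livers, above every CS liver (log2 fold change 1.31, SE 0.24, edgeR, unadjusted p = 1.48e-04, adjusted p = 0.103). The summed level of 8 bile duct markers beside it was 52.1 to 101 CPM in CS and 44.0 to 97.6 CPM in PS. Abcb4, which moves phosphatidylcholine into bile, was at 615, 401, 498 and 437 CPM in CS livers and at 337, 342, 286, 400.3 and 332 CPM in PS livers. All PS livers were lower than every CS liver, PS replicate 4 narrowly so, though in CPM from total counts alone PS replicate 4 (430.4) was above CS replicates 2 (387) and 4 (415), with a log2 fold change of -0.52 (SE 0.18, edgeR, unadjusted p = 0.015, adjusted p = 0.484), and the unadjusted p was 0.0611 without CS replicate 1 and 0.120 with the replicate block. Abcb1a, a drug efflux pump, did not exceed 3.35 CPM in any liver (log2 fold change 1.54, SE 0.70, edgeR, unadjusted p = 0.0483). That p was above 0.05 without CS replicate 3 or 4 or PS replicate 1, 2 or 4, between 0.0561 and 0.115, and with the replicate block (0.105). Over the alternatives the log2 fold change of Abcb1a was as low as 0.28. With at least 10 counts required in every library Abcb1a was not tested, and 1 transporter was higher. Its place among the 2 higher transporters thus rests on levels near the floor.

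Of 17 regulators, 14 were tested in the liver, with 1 higher and none lower at an unadjusted p of at most 0.05, none at an adjusted p of 0.05 by edgeR or DESeq2, and a median log2 fold change of 0.16. Ppargc1a, a coactivator of hepatic nuclear receptors, was at 3.86, 6.54, 8.65 and 9.67 CPM in CS livers and at 15.5, 10.3, 10.8, 12.5 and 13.1 CPM in PS livers, without overlap (log2 fold change 0.79, SE 0.27, edgeR, unadjusted p = 0.012, adjusted p = 0.463). The nuclear receptors Nr5a2 and Hnf4a, which bind near Cyp7a1 and Cyp8b1, had log2 fold changes of 0.08 (SE 0.20) and 0.13 (SE 0.20). Fgfr4 and Klb, the receptor and coreceptor through which the gut hormone FGF15 acts on hepatocytes, had 0.35 (SE 0.22) and -0.23 (SE 0.35). None of these had an unadjusted p under 0.129 (edgeR). Without CS replicate 2, 4 regulators were higher at an unadjusted p of at most 0.05, as were 7.77% of all genes in that fit, against 3.96% with every liver.

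**Figure D3:**
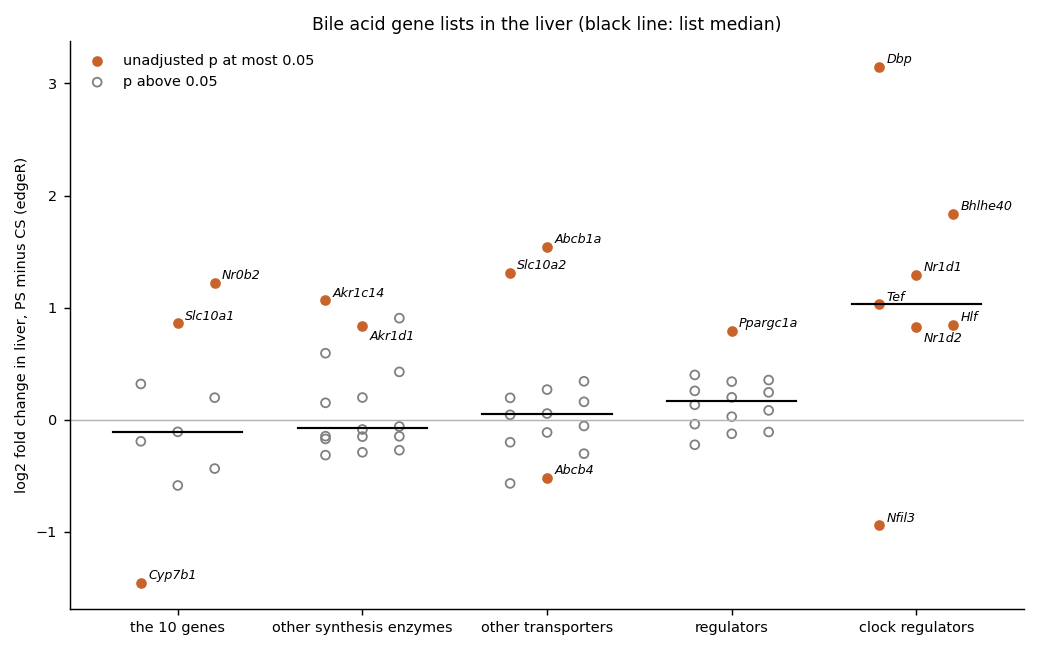
Log2 fold change in the liver, PS minus CS (vertical axis), of the tested genes among the 10 bile acid genes and 4 wider lists. Filled orange points have an unadjusted edgeR p of at most 0.05 and are named, open points do not, and black lines are list medians. The median lies between -0.11 and 0.16 in all lists but the clock regulators, where it is 1.03.

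Circadian regulators were given beside these genes because the synthesis of bile acids is known to follow the time of day. The list was also drawn up with earlier results of these data known, so its counts are a description and not independent support. All 7 were tested, 6 were higher and 1 was lower in PS livers at an unadjusted p of at most 0.05, and none at an adjusted p of 0.05 by edgeR, against 3.96% of all genes higher and 3.58% lower at the unadjusted p, while DESeq2 put 4 higher at an adjusted p under 0.05, against 0.835% of all genes by that test. Their summed level was 251 to 335 CPM in CS livers and 399 to 667 CPM in PS livers. Dbp, an activator of the D-box, was at 0.828, 26.6, 4.41 and 2.30 CPM in CS livers and at 108, 28.4, 91.4, 37.9 and 112 CPM in PS livers (log2 fold change 3.15, SE 0.87, edgeR, unadjusted p = 0.00386, adjusted p = 0.321). Leaving out 1 liver moved the log2 fold change of Dbp from 2.76, without CS replicate 1, to 4.91, without CS replicate 2 (edgeR, adjusted p = 0.0178). Nr1d1 (REV-ERBα) was at 40.7, 41.0, 38.4 and 20.4 CPM in CS livers and between 73.1 and 109 CPM in PS livers (log2 fold change 1.29, SE 0.23, edgeR, adjusted p = 0.103). Bhlhe40, Hlf and Nr1d2 had log2 fold changes of 1.84 (SE 0.28), 0.85 (SE 0.19) and 0.82 (SE 0.21). Nfil3, the repressor of the D-box, had -0.94 (SE 0.31), and its unadjusted p was above 0.05 without CS replicate 1 (0.0526) and with the replicate block (0.0820). The part of these genes in the differences of the bile acid genes was not tested.

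Markers of other liver cells were mostly lower in PS livers. All 6 macrophage markers were lower in PS livers, 2 of them at an unadjusted p of at most 0.05, which 3.58% of all genes passed as lower and 3.96% as higher, and their summed level was 189.8 to 253 CPM in CS and 61.6 to 209 CPM in PS. All 6 stellate and mesenchymal markers were lower (5 by limma-trend), 1 of them at that threshold (sums of 122 to 202 CPM in CS and 107 to 156 CPM in PS), as were 5 of 6 endothelial markers, none at it (92.2 to 107 CPM and 48.5 to 115 CPM). Of the 8 hepatocyte markers, 5 were higher and 3 lower (4 and 4 by DESeq2), none at that threshold by edgeR, and their sums were 80175 to 111363 CPM in CS and 95860 to 122498 CPM in PS. No marker of these 4 lists was at 0 counts in any liver. Of 8 pericentral hepatocyte markers, 6 were higher and 2 lower, and of 8 periportal ones 4 and 4, with 1 lower at that threshold in each list. Of 6 bile duct markers tested 4 were lower and 2 higher, and all 3 lymphocyte markers tested were lower, none at the threshold. In whole tissue, fewer cells of a type and less RNA per cell cannot be told apart, and the part of the other cells in the values of the bile acid genes was not tested.

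Because SHP, FXR and their targets are known to act on one another, 6 pairs of the genes were correlated across the 9 livers on log2 CPM, with 2-sided exact permutation tests adjusted over the 6 pairs. The strongest was Cyp8b1 with Nr0b2, with Pearson's r = -0.73 (exact permutation p = 0.0264, adjusted p = 0.159) and Spearman's rho = -0.55 (exact permutation p = 0.133, adjusted p = 0.581). After the diet means were removed, r was -0.62 (permutation p = 0.0767, adjusted p = 0.322) and rho -0.68 (permutation p = 0.0503, adjusted p = 0.302). There the permutation exchanged centred values between the diets and took no account of the means removed, so these p are approximate. Without CS replicates 1 and 3, the livers farthest from the median of Cyp8b1, the pooled r was -0.21 (exact permutation p = 0.679) over 7 livers, a narrower range of Cyp8b1. With diet means removed, leaving out the 2 farthest livers, CS replicates 1 and 2, gave r = -0.63 (permutation p = 0.139, approximate). Without CS replicate 2 the pooled r was -0.86 (exact permutation p = 0.00662, adjusted p = 0.0397), the only pair and liver left out for which the adjusted p was under 0.05.

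The other 5 pairs gave no p under 0.05 pooled or with diet means removed. Cyp7a1 with Cyp8b1 had r = 0.38 (exact permutation p = 0.310) and rho = 0.27 (p = 0.493), and without CS replicates 1 and 4 r was -0.20. Cyp7a1 with Nr0b2 had r = -0.29 (exact permutation p = 0.449) and rho = -0.32 (p = 0.410), and r was 0.02 without those livers. Nr1h4 with Nr0b2 had r = 0.40 (exact permutation p = 0.291) and rho = 0.35 (p = 0.359), and Nr1h4 with Abcb11 had r = -0.05 (p = 0.901) and rho = -0.22 (p = 0.581). Without CS replicate 2 and PS replicate 1 these were r = 0.43 and r = -0.65. Leaving out 1 liver moved r of Nr1h4 with Nr0b2 from 0.10 to 0.71. With diet means removed and the same 2 livers left out, r of that pair was -0.34. Slc10a1 with Abcb11 had r = -0.55 (exact permutation p = 0.119) and rho = -0.28 (p = 0.463). Its r was 0.01 without CS replicate 2 and PS replicate 5, and as low as -0.77 without 1 liver. The adjusted p of these 5 pairs was 0.357 or more for r and 0.581 for rho pooled, and 0.322 or more for r and 0.492 or more for rho with diet means removed.

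**Figure D4:**
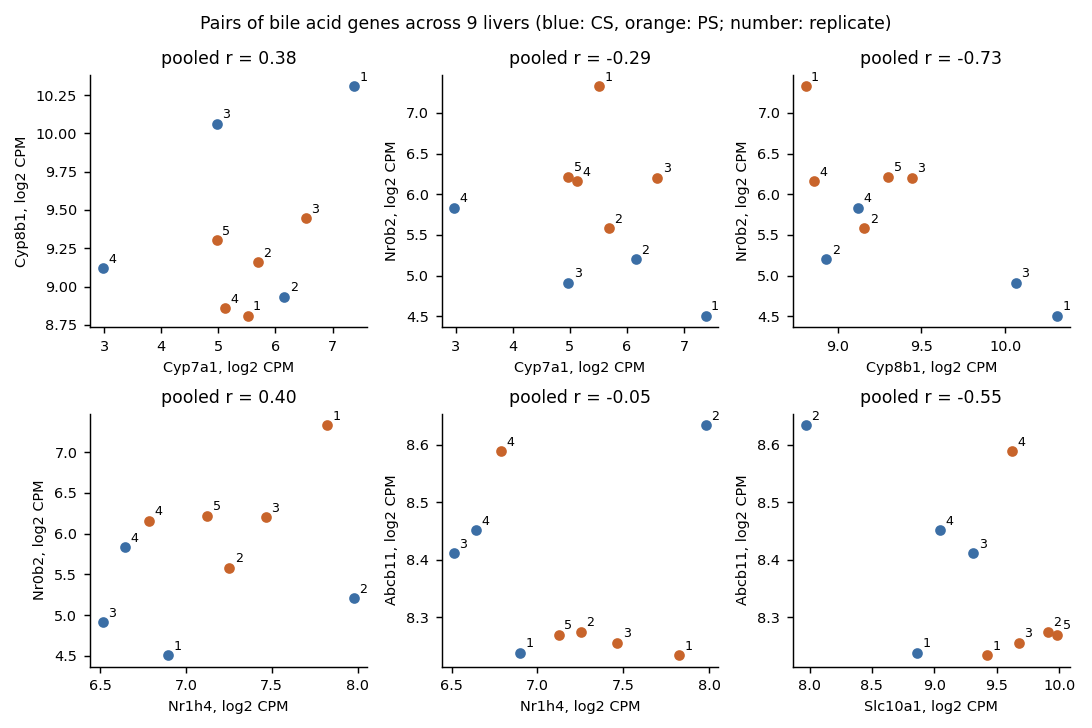
Log2 CPM of 6 pairs of bile acid genes, one gene on each axis, in 9 livers (blue CS, orange PS, numbered by replicate), with Pearson's r over all livers above each panel. The Cyp8b1 and Nr0b2 panel has the strongest r, -0.73, with CS replicates 1 and 3 at its lower right.

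In the lung, the question was whether the few of these genes expressed there responded to the diet. Only Cyp27a1, Cyp8b1 and Cyp7b1 passed the filter on low counts, and they passed it in both diets. Cyp27a1 was at 19.5, 24.3 and 23.3 CPM in CS lungs and at 23.7, 44.0 and 51.3 CPM in PS lungs. PS replicates 2 and 3 were above every CS lung, and PS replicate 1 lay among them. The log2 fold change was 0.83 with an interval from 0.23 to 1.43 (SE 0.27, edgeR, unadjusted p = 0.0124, adjusted p = 0.0773). The adjusted p was 0.0244 by DESeq2, 0.0383 without the filter and 0.00727 without PS replicate 1, and over all 13 alternatives it ran from 0.00727 to 0.224.

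Cyp8b1 was at 3.69, 3.14 and 1.85 CPM in CS lungs and at 3.14, 2.12 and 4.91 CPM in PS lungs (log2 fold change 0.23, SE 0.40, edgeR, adjusted p = 0.733). Cyp7b1 was at 3.89, 3.44 and 4.50 CPM in CS lungs and at 5.33, 3.68 and 2.37 CPM in PS lungs (log2 fold change -0.06, SE 0.34, edgeR, adjusted p = 0.927). The groups overlapped for both. No member passed an adjusted p of 0.05 by edgeR and 1 passed an unadjusted p of 0.05, while 9.22% of the 16717 lung genes tested passed the former and 30.1% (15.6% higher, 14.5% lower in PS) the latter. The median log2 fold change of the 3 genes was 0.23, against 0.01 over all genes tested.

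The other 7 genes had at most 20 counts in any lung. Without the filter they were tested too, and none had an adjusted p under 0.346, the value of Nr1h4 (log2 fold change 1.28, SE 0.75, edgeR). Nr1h4 had 8, 7 and 1 counts in CS lungs and 11, 20 and 5 in PS lungs. Cyp7a1 was at 0 counts in 5 of the 6 lungs, Nr0b2 had 1 count in 1 lung, and 3 counts correspond to no more than 0.178 CPM in a lung. CS replicate 1 had 4 counts of Cyp7a1, 11 of Baat and 10 of Abcb11, where the other CS lungs had none of them. It also had 1177 counts of Alb, the major product of hepatocytes, against 6 to 186 in the other lungs, and hepatocyte markers summed to 106 CPM there against at most 19.4 in the others. For each 1000 Alb counts, this lung had 3.40 counts of Cyp7a1 and the liver of the same mouse 3.33, and for Abcb11 the values were 8.50 and 6.05. Baat had 9.35 in the lung and 5.24 in the liver, and Slc10a1, with 4 counts in this lung, 3.40 and 9.33. For Cyp27a1 they were 327 in the lung and 8.49 in the liver, for Cyp7b1 65.4 and 6.70, and for Cyp8b1, at 73 counts in this lung, 62.0 and 25.4.

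**Figure D5:**
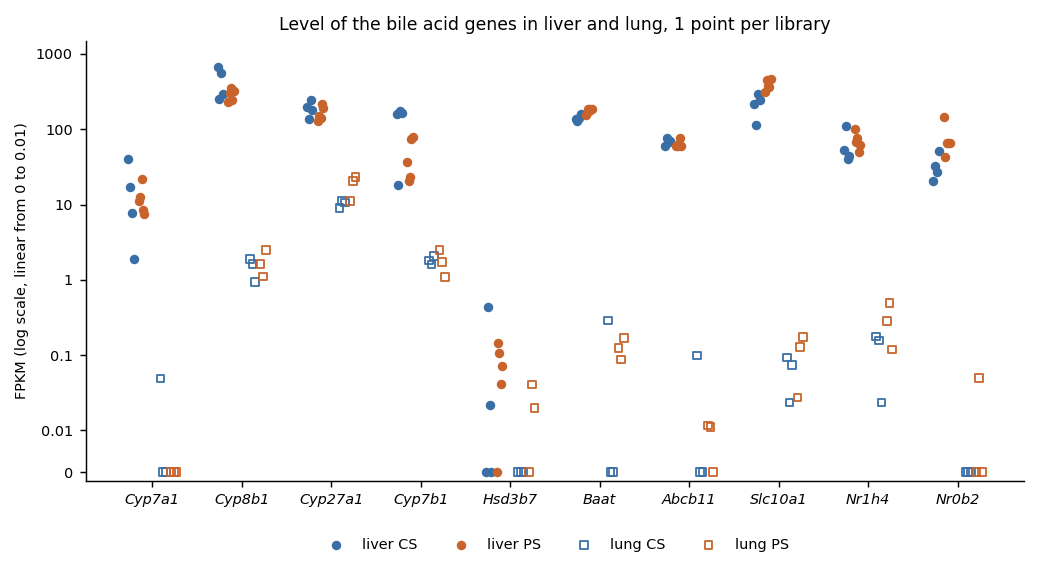
FPKM of the 10 bile acid genes (vertical axis, log scale, linear below 0.01) in each liver (filled circles) and lung (open squares), blue for CS and orange for PS. Cyp27a1 has the highest lung levels, 9.02 to 23.4 FPKM, and 5 genes are at 0 in 1 or more lungs.

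Levels in FPKM set across the tissues come from tables that were scaled separately. Cyp27a1 ran from 9.02 to 11.2 FPKM in CS lungs and from 11.04 to 23.4 in PS lungs, and the lowest liver was 12.4-fold above the highest lung in CS and 5.58-fold in PS. For Cyp8b1 the same ratio was 132 in CS and 93.5 in PS, and for Cyp7b1 8.75 and 8.26. The diet effect in lung minus that in liver, tested on counts in 1 model over the 15 libraries, was 0.97 on the log2 scale for Cyp27a1 (SE 0.38, edgeR, unadjusted p = 0.0202, adjusted p = 0.392). It was 0.77 for Cyp8b1 (SE 0.52, adjusted p = 0.592) and 1.38 for Cyp7b1 (SE 0.85, adjusted p = 0.558). None of the 9 genes that passed the filter of this model had an adjusted p under 0.05 by edgeR, by DESeq2 or with mouse as a block, and 1, Cyp27a1, had an unadjusted p under 0.05 in each of these fits. Of all 17696 genes tested, 0.0226% passed the former and 10.9% the latter. The other 6 members were near 0 in the lung, where a fall could not be seen at this depth.

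Other bile acid genes passed the adjusted threshold in the lung, where 4.8% of all genes did so higher and 4.43% lower in PS. Of 11 further synthesis enzymes tested there, 3 fell at an adjusted p under 0.05 and none rose. Hsd17b4 and Abcd3, which serve the peroxisomal shortening of the side chain as well as of fatty acids, fell by 0.68 (SE 0.14, edgeR, adjusted p = 0.0297) and by 0.74 (SE 0.16, edgeR, adjusted p = 0.0326) on the log2 scale. Cyp39a1, an oxysterol hydroxylase, was at 43.9, 38.5 and 44.1 CPM in CS lungs and at 19.8, 11.6 and 28.2 CPM in PS lungs, and fell by 1.09 (SE 0.28, edgeR, adjusted p = 0.0465). Of 9 other transporters, Slc10a5, an orphan relative of Slc10a1, was at 7.33, 4.52 and 6.02 CPM in CS lungs and at 0.118, 0.335 and 1.77 CPM in PS lungs, which are 2, 6 and 32 counts in the latter. It passed the filter through its CS lungs, and its adjusted p of 0.0398 (edgeR, 0.0816 without the filter) is not counted as a call. None of 10 regulators passed. Of the 7 clock regulators, Nr1d1 (log2 fold change 1.29, SE 0.30, edgeR, adjusted p = 0.037) and Nr1d2 (0.80, SE 0.15, adjusted p = 0.0264) rose, Nfil3 fell by 0.78 (SE 0.20, adjusted p = 0.0465), and Dbp had 1.19 (SE 0.36, adjusted p = 0.0659). Leaving out any CS lung or PS replicate 2 took every one of these 6 calls above 0.05, and these removals took the lung as a whole from 802 higher and 740 lower genes to at most 2 higher and 25 lower. Leaving out PS replicate 1 did so for Cyp39a1 (adjusted p = 0.0642) and Nfil3 (0.0593), and PS replicate 3 for Nr1d1 (0.0576). By limma-trend with a pseudocount of 1 or 0.1 the adjusted p was 0.0518 and 0.0537 for Cyp39a1, 0.0524 and 0.0520 for Nfil3 and 0.0608 and 0.0584 for Nr1d1, and with the replicate block it was 0.0615 for Nfil3.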

How the data were processed

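Poly-A RNA was sequenced from 9 livers and 6 lungs of 9 mice, 1 library each. The authors aligned reads to mm10 with HISAT2 2.0.5 and counted them per gene with featureCounts 1.5.0-p3 (per the labels and methods). The deposited counts are unnormalized. The deposited FPKM are counts scaled by gene length and library, separately in each tissue. The genes and lists were chosen with earlier results of these data known.

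Counts were tested with edgeR 4.0.16 (robust quasi-likelihood, TMM, filterByExpr, R 4.3.3) and adjusted by Benjamini-Hochberg over all genes. Liver calls used an unadjusted p of at most 0.05 and an adjusted p under 0.05. Lung and difference calls used the latter. Alternatives were DESeq2 1.42.0, limma-trend 3.58.1 on log2(FPKM + 1) and log2(FPKM + 0.1), other filters, a replicate block and leaving out each library. Pairs were tested by permutation of all pairings with scipy 1.17.1, which is approximate where diet means were removed. Scripts were tested on simulated data. Named genes were all 10 members, at most 5 genes per list and tissue past its threshold by smallest p, and Akr1d1, Slc10a2, Cyp2c70, Nr5a2, Hnf4a, Fgfr4, Klb, Dbp and Nr1d1 always. CPM by total counts was added after seeing the data. Intervals are 95% and cover the spread between mice. A count of 0 allows up to 3 counts.

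Liver and lung of the same mouse correlated between -0.09 and 0.17 in their deviations from the group means, so mouse was a block in an alternative of the difference test.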

Additional observations from a re-analysis of the deposited data

Results flagged for a closer look

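In 60 groups of 4 or 5 livers, 1 liver stood apart from the rest of its group by Dixon's test in 7 cases, where chance gives about 1 in 20. Cyp7b1 was at 39.1 CPM in CS replicate 2 and at 335 to 364 CPM in the other CS livers. Baat was at 298 CPM in PS replicate 1, with 340.2 to 357 CPM in the other PS livers. Abcb11 was at 385 CPM in PS replicate 4, with 301 to 309.7 CPM in the others. Nr0b2 was at 161 CPM in PS replicate 1, with 47.8 to 74.4 CPM in the others. Of the clock regulators, Nr1d1 was at 20.4 CPM in CS replicate 4 (38.4 to 41.0 in the other CS livers) and Dbp at 26.6 CPM in CS replicate 2 (0.828 to 4.41). The synthesis enzyme Hsd17b4 was at 417 CPM in CS replicate 2 and at 635 to 666 CPM in the other CS livers. Of these 7 livers, 3 were CS replicate 2 and 2 were PS replicate 1.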

How the results depend on the processing

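Of 144 values of the 9 genes in the liver under the alternatives, 125 kept their direction and side of the threshold, as did 33 of 39 in the lung and all 60 of the difference between tissues. The log2 fold change of Cyp7a1 in the liver reversed to 0.091 and 0.18 by limma-trend with a pseudocount of 1 and 0.1, and to 0.37 with the replicate block. Leaving out 1 library, it ran from -0.81 to 0.47, Klb from -0.43 to 0.0077, Nr5a2 from -0.060 to 0.20, Cyp8b1 in the lung from -0.14 to 0.48 and Cyp7b1 in the lung from -0.39 to 0.19. The count of liver genes at an unadjusted p of at most 0.05 ran from 2 to 5, that of lung genes from 0 to 1 by either p, that of the difference from 0 to 2 and that of pairs from 0 to 1. In the lung 1 gene, Cyp27a1, passed the adjusted threshold by DESeq2 and without a filter. Pearson's r of Nr1h4 with Abcb11 was 0.067 with diet means removed and -0.67 to 0.14 without 1 liver. That of Cyp7a1 ran from -0.029 to 0.55 with Cyp8b1 and from -0.42 to 0.052 with Nr0b2. Without the 2 livers farthest from the median these were -0.20 and 0.015, and Slc10a1 with Abcb11 was 0.015. The separation of the Slc10a1 livers was lost in CPM by total counts. The cause of these changes was not tested.

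Livers that share a replicate number did not deviate together (correlations of -0.32 to -0.03), nor did lungs (-0.01 to 0.10). The labels do not say whether the numbers stand for more than the mouse. With the numbers as a replicate block, 308 liver genes were higher and 239 lower at an unadjusted p of at most 0.05, against 523 and 473, and 0 passed the adjusted p. Over all liver genes, the adjusted threshold was passed by 110 higher and 53 lower genes with DESeq2, 20 and 6 without a filter, and 43 and 22 without CS replicate 2, against 1 and 0. Without a filter 828 liver genes were higher and 785 lower by unadjusted p, and without CS replicate 2 1039 and 852. In the lung DESeq2 gave 1611 and 1479 genes and leaving out PS replicate 1 gave 1752 and 1197, against 802 and 740. For the difference DESeq2 gave 94 and 139, against 1 and 3, and the mouse block left 577 and 418 at the unadjusted p, against 980 and 955. At these depths the genes with at most 20 counts per lung could not show a fall.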

Other observations

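Cyp7b1 was lowest in CS replicate 2 and PS replicates 1 to 3, and it is known for a higher level in male than in female mouse liver. The values of 4 other genes known to differ between the sexes are given beside it. They were chosen after the values were seen and were not tested. Elovl3, a fatty acid elongase, was at 849.8, 190.2, 651 and 883 CPM in CS livers and at 178, 179.8, 106, 361 and 287 CPM in PS livers. Slco1a1, an organic anion uptake carrier, was at 345, 82.7, 342 and 340.0 CPM in CS livers and at 166, 147, 151, 395 and 421 CPM in PS livers. For both genes the same 4 livers were the lowest of the 9. Cyp2b9, known for higher levels in females, was at 0.221, 20.9, 0.406 and 0.128 CPM in CS livers and at 3.40, 137, 38.4, 0.618 and 1.39 CPM in PS livers, and the same 4 livers were the highest. C9, a complement component known for higher levels in males, was at 341, 203, 348 and 353 CPM in CS livers and at 372, 175, 161, 332 and 311 CPM in PS livers, and here PS replicate 1 was the highest of the 9 livers. Xist, the transcript of the inactive X, was at most 0.464 CPM and Ddx3y, a gene of the Y chromosome, was 29.2 to 61.7 CPM in every liver.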
